A study of Rattus norvegicus with 43 samples.

Results

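The genes described here are 8 targets of p53 that act in cell cycle arrest and stress signalling, Phlda3, Ccng1, Cdkn1a, Plk2, Gadd45a, Sesn1, Tigar and Gdf15. They were chosen by gene symbol, with earlier results of these data known. All probes that the platform annotation gives 1 of these symbols were taken, with no filter on their values. That gave 10 probes of the 8452 on the array and 8 genes of the 5628 named on it, with 2 probes each for Ccng1 and Cdkn1a. All 10 probes passed the filter on dim probes and reached the scanner's noise level on all 43 arrays. Phlda3 passed that filter through rats killed at 12 h alone, as given below.

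RNA of colonic mucosa from Sprague Dawley rats, male and weanling by their labels, was hybridised to 1-colour CodeLink arrays. The 6 groups were rats fed fish oil (4 rats), olive oil (5 rats) or corn oil (5 rats) and labelled as killed 10 wk after azoxymethane, and rats fed fish oil, olive oil or corn oil (5 rats each) and killed 12 h after it. Every rat in both time groups had received azoxymethane at 15 mg/kg, a compound that the body turns into a DNA-methylating agent and that induces colon tumours in rodents. No untreated rat was included, so each value at 10 wk is read against rats killed early after the carcinogen and not against a resting level. The treatment protocol gives the late rats another injection and counts 9 wk to their death, while their own labels say 10 wk. Age, injections and time on the diet differ between the times together, and their parts in a difference cannot be told apart. The tissue is a mixture of cells, and fewer cells of a type and less RNA per cell cannot be told apart either.

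The p53 protein is a transcription factor that is held at a low level by the ubiquitin ligase Mdm2 and is stabilised when DNA is damaged. It binds paired decamer elements near its targets, and the genes it switches on halt the cell cycle, restrain growth signalling, change metabolism or kill the cell. In the intestinal epithelium the p53 response to DNA-damaging agents is known for its transient rise in crypt cells. Cdkn1a, Ccng1, Plk2 and Gadd45a are the members that act on the cell cycle, Phlda3 on Akt signalling, Sesn1 and Tigar on nutrient signalling and sugar metabolism, and Gdf15 as a secreted stress signal.

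The stretches upstream of 4 of these genes are shown: Cdkn1a and Gadd45a because each held a pair of near matches to the p53 decamer, and Ccng1 and Phlda3 as the members with the greatest time differences. All 8 genes had at least 1 RefSeq window of 300 bases in the rat assembly GRCr8, and Gdf15 had 2 windows, which makes 9. The p53 decamer consensus reads the same on both strands, so 1 search covers both. It was found without mismatch in 4 of the 9 windows, those of Ccng1, Cdkn1a, Gadd45a and Sesn1, against 7.98% of all 33469 promoter windows. A pair of decamers at most 13 bases apart and without mismatch was in 0 of the 9 windows, against 0.0598% of all. With 1 mismatch allowed outside the core of the pair, a rule added after the sequences were seen, Cdkn1a and Gadd45a held a pair, 2 of 9 windows against 0.35% of all. The Cdkn1a pair lies at -201 to -182 from the annotated start with no bases between its decamers. The Gadd45a pair lies at -69 to -39 with 11 bases between them. Ccng1 held a lone decamer at -232 to -223, and Phlda3, the member with the greatest time difference, held none in its window. The match is one of letters only.

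The lines give the 250 bases upstream of each start, 5′ to 3′ on the gene's strand, from RefSeq in GRCr8, with decamer matches in capitals. They lie at chr20:7150682-7150931 (plus strand) for Cdkn1a, chr4:97486800-97487049 (minus strand) for Gadd45a, chr10:25684877-25685126 (minus strand) for Ccng1 and chr13:49744753-49745002 (plus strand) for Phlda3.
Cdkn1a: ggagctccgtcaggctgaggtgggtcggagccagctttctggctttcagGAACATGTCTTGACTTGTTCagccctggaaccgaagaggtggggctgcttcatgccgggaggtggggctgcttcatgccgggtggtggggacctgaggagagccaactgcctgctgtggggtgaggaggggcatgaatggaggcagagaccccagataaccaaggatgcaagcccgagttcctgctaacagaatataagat
Gadd45a: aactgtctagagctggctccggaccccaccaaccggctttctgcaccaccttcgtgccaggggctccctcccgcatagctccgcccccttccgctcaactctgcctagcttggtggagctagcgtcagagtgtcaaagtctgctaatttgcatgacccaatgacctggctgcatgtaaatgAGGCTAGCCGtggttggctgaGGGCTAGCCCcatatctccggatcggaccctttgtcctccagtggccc
Ccng1: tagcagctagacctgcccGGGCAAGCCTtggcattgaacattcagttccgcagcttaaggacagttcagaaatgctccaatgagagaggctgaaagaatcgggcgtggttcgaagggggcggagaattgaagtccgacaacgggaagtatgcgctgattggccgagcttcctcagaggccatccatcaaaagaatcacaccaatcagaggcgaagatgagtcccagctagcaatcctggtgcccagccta
Phlda3: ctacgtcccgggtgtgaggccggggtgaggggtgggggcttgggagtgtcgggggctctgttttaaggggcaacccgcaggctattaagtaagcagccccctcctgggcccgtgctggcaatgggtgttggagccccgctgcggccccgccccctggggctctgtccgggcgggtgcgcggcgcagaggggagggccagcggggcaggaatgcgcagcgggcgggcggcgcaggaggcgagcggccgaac

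Array quality bears on the members in a few places. The arrays' median signal over background lay between 163 and 685, and 6 arrays, 3 each of rats 136 and 236 at 10 wk, had a high local background. The files show 3 classes of scan setting, by the area of the spot and of the background ring, and they are spread unevenly over the times: arrays of 12 rats at 10 wk and 3 rats at 12 h had a large ring, those of 2 rats at 10 wk and 11 at 12 h a small ring, and those of 2 rats at 10 wk and 4 at 12 h large spots, with a few rats in more than 1 class. The classes are uneven over the diets too. At 12 h large spots were on 4 of 6 olive oil arrays, 1 of 7 with fish oil and 0 of 7 with corn oil. Rat 104, fed corn oil and killed at 12 h, stood apart from the other rats of its time in Phlda3 and Ccng1, and results that rest on it are given with and without it. Levels below are log2 intensities after background correction and quantile normalisation, with 1 value per rat, and a level is comparable between rats but not between probes.

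Of the 10 probes, 6 were lower at 10 wk than at 12 h when the diets were averaged, and they belong to 4 of the 8 genes: Phlda3, Ccng1, Cdkn1a and Plk2. Across the array 17.7% of the 6381 tested probes were called lower in the same comparison, 1128 against 1225 called higher (351 against 882 with the deposited normalized values). Phlda3 fell most, 3.44-fold. Ccng1 fell 2.12-fold and 2.06-fold on its 2 probes, Cdkn1a 1.20-fold and 1.69-fold on its 2 probes, and Plk2 1.44-fold. No member was called higher. The median difference of the 10 member probes was -0.40 log2, against 0.00 over all tested probes. That median counts 2 probes each for Ccng1 and Cdkn1a, and with 1 probe per gene the middle values are -0.26 and -0.20. The members were chosen with earlier results of these data known, so their count and median beside the array's are a description and not a test. Gadd45a, Gdf15, Sesn1 and Tigar did not pass. All calls are by limma's moderated test with Benjamini-Hochberg adjustment over all tested probes, at a threshold of 0.05.

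**Figure D1:**
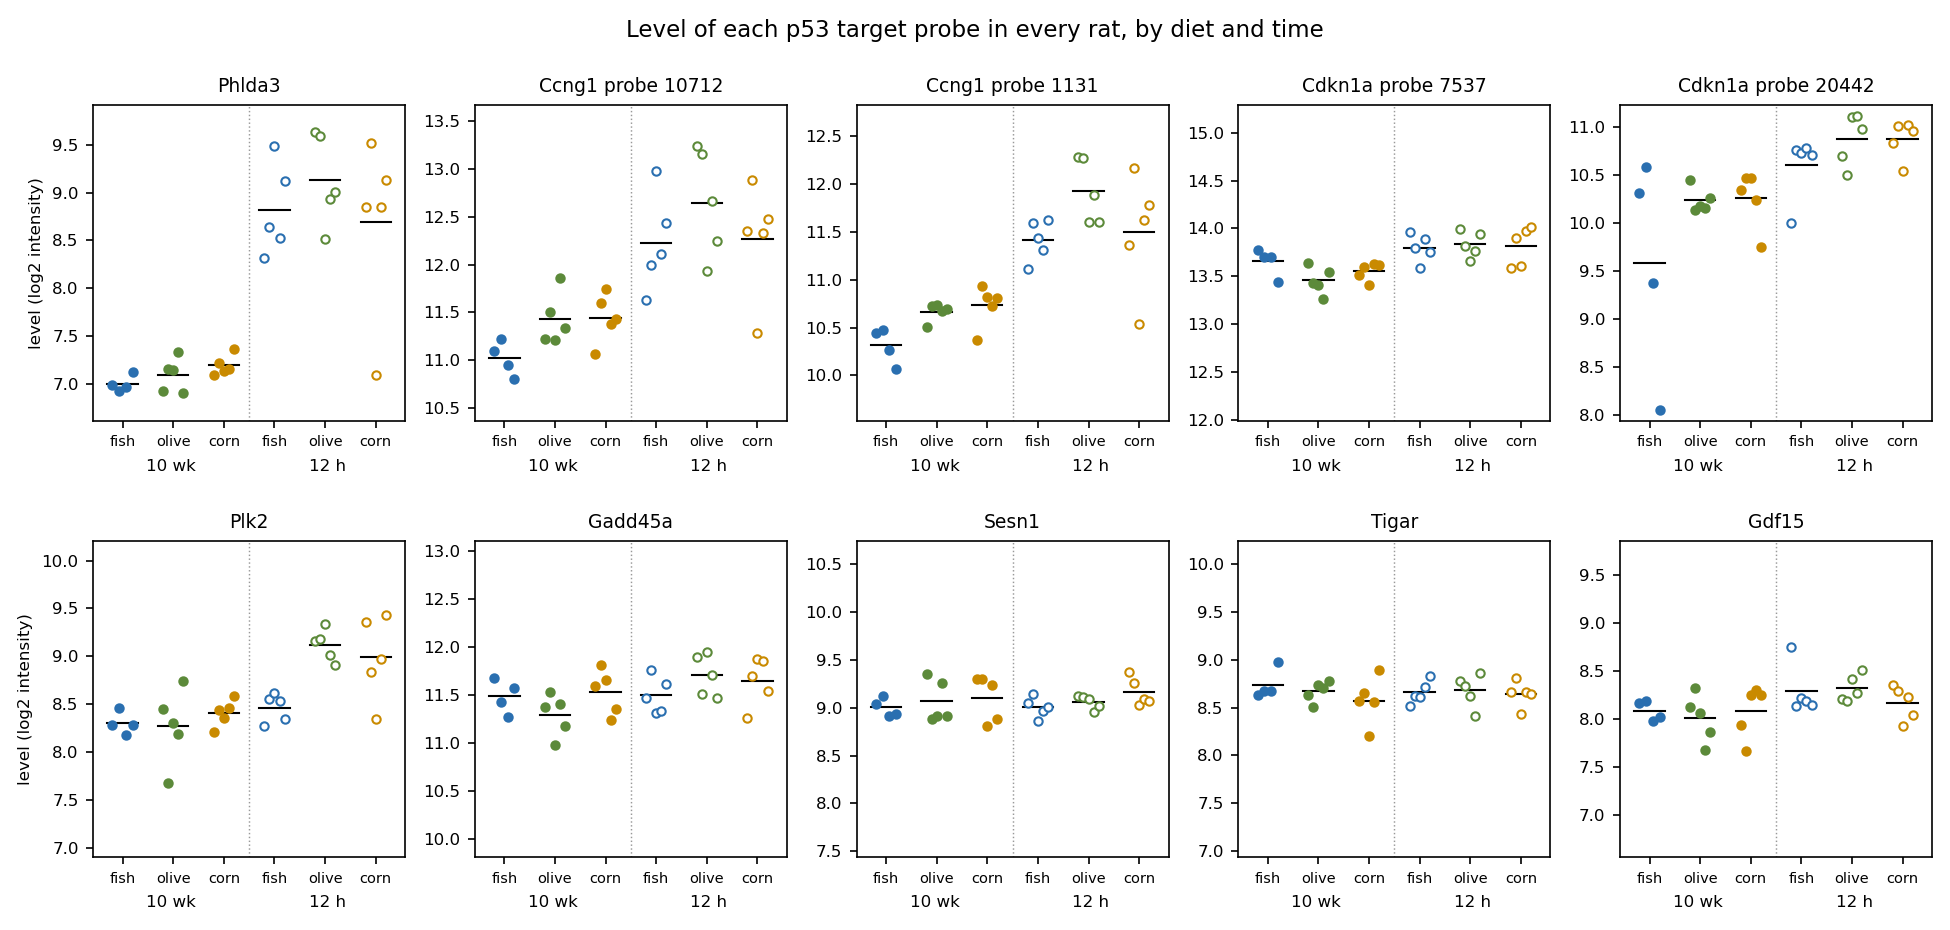
Level of each probe (log2 intensity, vertical axis, the same span of units in every panel) in each of the 29 rats, with 10 wk (filled) left of 12 h (open) and diets in colour. Each point is 1 rat and each bar a group mean. Phlda3 lies between 6.90 and 7.37 in all 10 wk rats, and at 8.32 or more in all 12 h rats but rat 104.

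Cdkn1a encodes p21, the inhibitor of cyclin-dependent kinases through which p53 arrests cells in G1. Its probe 7537 read 13.78, 13.71, 13.71 and 13.44 in fish oil rats, 13.64, 13.43, 13.41, 13.27 and 13.54 in olive oil rats and 13.51, 13.59, 13.41, 13.63 and 13.62 in corn oil rats at 10 wk. At 12 h it read 13.96, 13.79, 13.58, 13.89 and 13.76 with fish oil, 13.99, 13.82, 13.66, 13.77 and 13.94 with olive oil and 13.59, 13.90, 13.61, 13.98 and 14.02 with corn oil. The groups overlap in fish oil and corn oil rats, and in olive oil rats all 10 wk values lie below all 12 h values. Averaged over diets the difference was -0.26 ± 0.059 log2 (SE, adjusted p = 0.00121, limma), a 1.20-fold fall. Over the 12 alternatives to the processing it ran from -0.34 to -0.24, with adjusted p of 0.000173 to 0.0448 (limma). The highest of these came with the deposited normalized values.

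The other Cdkn1a probe, 20442, gave a greater difference, -0.76 ± 0.167 log2 (SE, adjusted p = 0.000975, limma), and wider scatter. At 10 wk its levels were 10.32, 10.59, 9.38 and 8.05 in fish oil rats, 10.46, 10.14, 10.18, 10.16 and 10.27 in olive oil rats and 10.35, 10.47, 10.47, 10.24 and 9.76 in corn oil rats. At 12 h they were 10.00, 10.77, 10.73, 10.79 and 10.72 in fish oil rats, 10.70, 10.50, 11.11, 11.12 and 10.98 in olive oil rats and 10.84, 11.01, 10.54, 11.03 and 10.96 in corn oil rats. Every 10 wk value is below every 12 h value in olive oil and corn oil rats, and the fish oil groups overlap. The lowest value belongs to rat 236, whose 4 arrays read 7.29, 7.37, 8.39 and 9.16 on this probe, a range of 1.87, against a median range of 0.21 between repeat arrays of a rat. Without rat 236 the difference averaged over diets was -0.59 (adjusted p = 0.000379), and without the 6 arrays of high background it was -0.70 (adjusted p = 0.000558; 0.000404 to 0.0181 over the alternatives to the processing). Which of the 2 probes is nearer the change of the transcript was not tested, and their sequences were not used here.

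Ccng1 encodes cyclin G1, an early p53 target that recruits a phosphatase to Mdm2 and so feeds back on p53. Its probe 10712 read 11.10, 11.22, 10.95 and 10.81 in fish oil rats, 11.22, 11.51, 11.22, 11.86 and 11.34 in olive oil rats and 11.06, 11.60, 11.75, 11.38 and 11.43 in corn oil rats at 10 wk. At 12 h the levels were 11.63, 12.00, 12.98, 12.11 and 12.43 with fish oil, 13.23, 13.15, 11.93, 12.66 and 12.25 with olive oil and 12.35, 12.89, 11.29, 12.33 and 12.48 with corn oil. The corn oil rat at 11.29 is rat 104. Apart from it, no 12 h rat reads below the highest 10 wk rat of its own diet. The difference averaged over diets was -1.08 ± 0.152 log2 (SE, adjusted p = 7.21e-06, limma), and on probe 1131 it was -1.04 ± 0.115 log2 (SE, adjusted p = 3.83e-07, limma). On probe 1131 the 10 wk rats ranged from 10.07 to 10.93 with a median of 10.68, and the 12 h rats from 10.54 to 12.29 with a median of 11.60. Only rat 104 among the 15 rats at 12 h lay within the 10 wk range on that probe.

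Plk2 encodes a polo-like kinase that is induced by stress and acts in centriole duplication. Its levels at 10 wk were 8.28, 8.46, 8.18 and 8.29 in fish oil rats, 8.45, 7.68, 8.30, 8.19 and 8.74 in olive oil rats and 8.21, 8.44, 8.36, 8.46 and 8.59 in corn oil rats. At 12 h they were 8.27, 8.55, 8.62, 8.53 and 8.35 in fish oil rats, 9.16, 9.18, 9.34, 9.01 and 8.91 in olive oil rats and 9.36, 8.84, 8.34, 8.98 and 9.44 in corn oil rats. All olive oil rats at 12 h lie above all olive oil rats at 10 wk, 4 of the 5 corn oil rats do so within corn oil, and the fish oil groups overlap. The difference averaged over diets was -0.53 ± 0.098 log2 (SE, adjusted p = 0.000172, limma).

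Gadd45a encodes a damage-inducible protein that binds PCNA and activates stress kinases. It ranged from 10.97 to 11.82 in the 14 rats at 10 wk and from 11.26 to 11.95 in the 15 rats at 12 h, so the times overlap. The difference averaged over diets, -0.18 ± 0.081 log2 (SE, adjusted p = 0.0814, limma), did not pass, and its 95% interval runs from -0.34 to -0.01. It passed in 2 of 12 alternatives, with the rat as a random block (-0.22, adjusted p = 0.0159) and with array quality weights (-0.22, adjusted p = 0.0187), with adjusted p of 0.0159 to 0.458 over the 12, and when rat 102 was left out (-0.21, adjusted p = 0.0346). In the rat that was low in Phlda3 and Ccng1 at 12 h, rat 104, Gadd45a read 11.87, among the highest values of all 29 rats.

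Phlda3 encodes a small protein with a pleckstrin homology domain that competes with Akt for membrane lipids and so restrains Akt signalling. At 10 wk it read 6.99, 6.93, 6.97 and 7.13 in fish oil rats, 6.93, 7.16, 7.15, 7.34 and 6.90 in olive oil rats and 7.10, 7.22, 7.14, 7.16 and 7.37 in corn oil rats. At 12 h it read 8.32, 8.64, 9.49, 8.53 and 9.12 in fish oil rats, 9.63, 9.59, 8.51, 8.94 and 9.00 in olive oil rats and 8.84, 9.52, 7.09, 8.85 and 9.13 in corn oil rats. Of the 15 rats at 12 h, 14 lay above the highest 10 wk rat, and the exception is rat 104 at 7.09. The 10 wk rats were close together (7.11 ± 0.147, SD, n = 14) and the 12 h rats spread more widely (8.88 ± 0.644, SD, n = 15). The 10 wk levels are near the floor of 6.46 set in the processing, though no rat was at it. How far the dim signal narrows their spread was not tested. Only rats killed at 12 h exceeded the bound of the filter on dim probes. The probe thus entered the test through the group where it is high. The difference averaged over diets was -1.78 ± 0.17 log2 (SE, adjusted p = 5.11e-08, limma). It was the second largest fall among all tested probes. Without rat 104 it was -1.91 (adjusted p = 1.91e-11), the lowest of the values given when each rat in turn was left out.

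Sesn1 encodes a sestrin that holds back mTORC1 when amino acids or DNA integrity fail. It ranged from 8.81 to 9.36 at 10 wk and from 8.86 to 9.38 at 12 h, and its difference was -0.02 log2 with a 95% interval from -0.15 to 0.11 (adjusted p = 0.844, limma). Tigar encodes a phosphatase that lowers fructose-2,6-bisphosphate and diverts glucose from glycolysis. It ranged from 8.20 to 8.98 at 10 wk and from 8.41 to 8.86 at 12 h, and its difference was 0.00 log2 with a 95% interval from -0.13 to 0.13 (adjusted p = 0.986, limma). Both intervals leave out a difference as large as that of Cdkn1a probe 7537, the smallest among the 6 called probes.

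Gdf15 encodes a secreted member of the TGF-beta superfamily that rises in many kinds of tissue stress and curbs appetite through a receptor in the hindbrain. Its levels were 8.17, 8.18, 7.98 and 8.02 in fish oil rats, 8.13, 8.33, 8.06, 7.68 and 7.87 in olive oil rats and 7.93, 7.67, 8.25, 8.30 and 8.25 in corn oil rats at 10 wk. At 12 h they were 8.75, 8.13, 8.22, 8.19 and 8.15 in fish oil rats, 8.21, 8.19, 8.42, 8.27 and 8.51 in olive oil rats and 8.35, 8.29, 7.93, 8.23 and 8.04 in corn oil rats. The times overlap in every diet. The difference averaged over diets was -0.20 ± 0.079 log2 (SE, adjusted p = 0.0507, limma), just outside the threshold, and the call changes with the processing: it passed in 4 of 12 alternatives, with adjusted p from 0.0107 to 0.321 over them, and when any 1 of 11 rats was left out.

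The time difference was also taken within each diet. In fish oil rats 4 member probes were called lower at 10 wk (5.92% of all tested probes were), namely Phlda3, both Ccng1 probes and Cdkn1a probe 20442. In olive oil rats 6 were called lower (5.5% of all), namely Phlda3, both Ccng1 probes, Cdkn1a probe 7537, Plk2 and Gadd45a. In corn oil rats 2 were called lower (1.52% of all), Phlda3 and Ccng1 probe 1131. Phlda3 was thus called in each diet, at -1.81 ± 0.306 in fish oil, -2.04 ± 0.288 in olive oil and -1.49 ± 0.288 log2 in corn oil rats (SE). The corn oil count was 4 without rat 104, with Ccng1 probe 10712 (-1.07, adjusted p = 0.0136) and Plk2 (-0.74, adjusted p = 0.00715) added, and 1 without rat 102, 103, 105, 106, 131, 135 or 136, where Ccng1 probe 1131 no longer passed.

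Several calls within 1 diet changed when a rat was left out. Cdkn1a probe 20442 in fish oil rats, -1.02 ± 0.30 log2 (SE, adjusted p = 0.0271, limma), was lost without rat 203, 205, 234 or 236, and stood at -0.51 without rat 236 (adjusted p = 0.166). It was also lost in 4 of 13 alternatives: with the scan class as a block (-1.10, adjusted p = 0.0655), with the deposited normalized values (-1.10, adjusted p = 0.0939), with array quality weights (-0.50, adjusted p = 0.184) and with only the compared groups in the fit (-1.02, adjusted p = 0.182). Over the 13 alternatives its adjusted p ran from 0.00647 to 0.184. Gadd45a in olive oil rats read 11.38, 11.54, 10.97, 11.40 and 11.18 at 10 wk and 11.90, 11.51, 11.95, 11.71 and 11.47 at 12 h. Its difference of -0.41 ± 0.137 log2 (SE, adjusted p = 0.043, limma) was lost without any 1 of rats 301, 304, 305, 332, 334, 335 and 336, with adjusted p up to 0.137, and in 5 of 13 alternatives. Plk2 differed by -0.85 ± 0.166 log2 in olive oil rats (adjusted p = 0.00195), by -0.58 ± 0.166 in corn oil rats (adjusted p = 0.0522) and by -0.16 ± 0.176 in fish oil rats (SE, adjusted p = 0.592, limma). In corn oil rats Plk2 also passed when rat 304, 333 or 336 of the olive oil groups was left out.

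**Figure D2:**
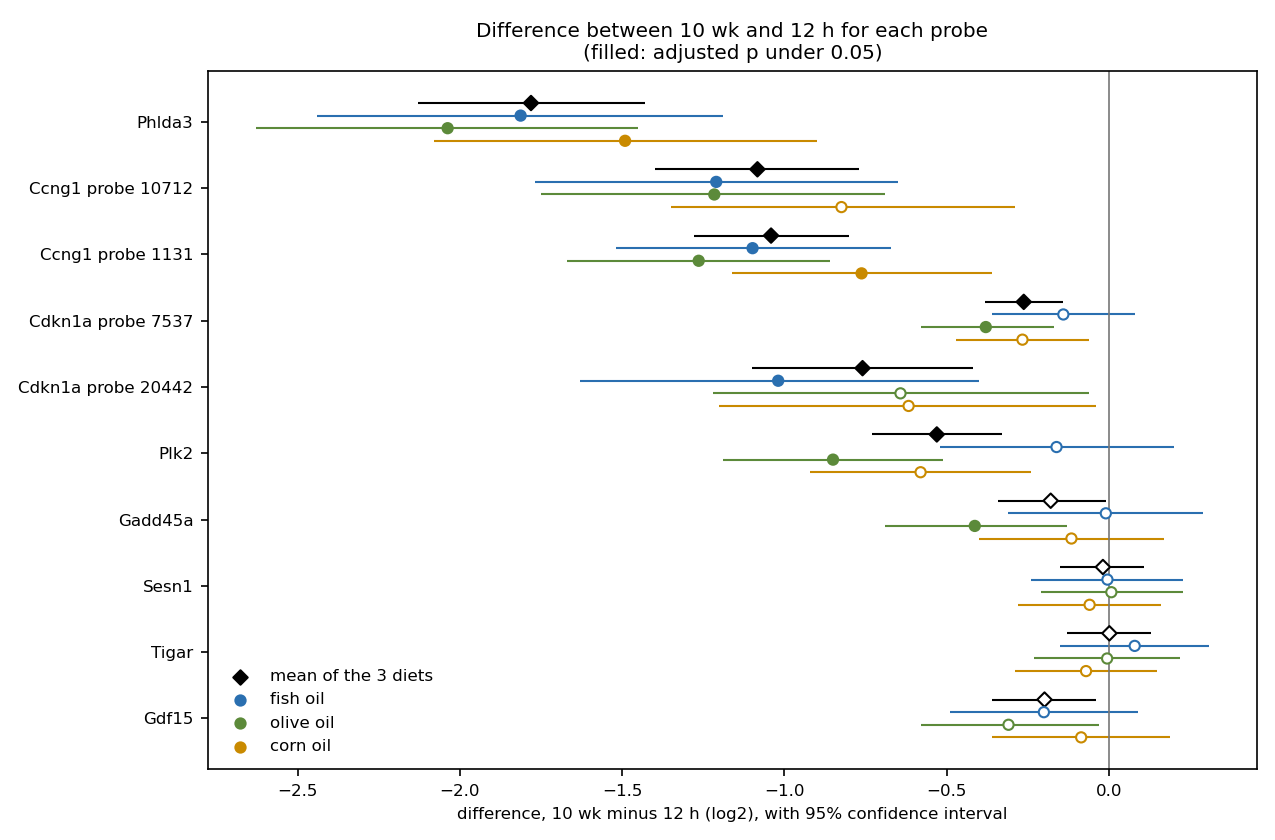
Difference between 10 wk and 12 h (log2, horizontal axis) for each probe, averaged over diets (diamonds) and within each diet (circles), with 95% confidence intervals. Filled symbols have an adjusted p under 0.05. Phlda3 stands at -1.78 on average and is filled in every diet, and Sesn1 and Tigar lie on 0.

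Whether the time difference itself differed between diets was tested by an F test of the interaction, and 0 members passed, as did 0% of all tested probes. Plk2 alone among the members had an unadjusted p below 0.05 in limma's test (unadjusted p = 0.0282, adjusted p = 0.938), as had 260 probes in all, 4.07%. The Plk2 difference in fish oil rats minus that in olive oil rats was 0.69 ± 0.242 log2 (SE, unadjusted p = 0.00835, adjusted p = 0.996, limma). The diets therefore were not shown to differ in the time course of any member.

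Diets were then compared at each time. At 12 h, 0 members were called between fish oil and corn oil (0% of all tested probes), between olive oil and corn oil (0%) or between fish oil and olive oil (0%), by limma. At an unadjusted p below 0.05 these pairs had 1, 1 and 2 member probes, of 528, 590 and 484 in all. At 10 wk, 0 members were called between fish oil and corn oil, where 4 probes were called on the whole array (0.0627%), and 0 between olive oil and corn oil (0%) or fish oil and olive oil (0%). There the unadjusted counts of member probes were 1, 0 and 1, of 685, 147 and 302 in all.

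Plk2 had the smallest unadjusted p of the members in these pairs. At 12 h its 5 fish oil rats, at 8.27 to 8.62, all lay below the 5 olive oil rats, at 8.91 to 9.34. This holds for the means of each rat's arrays. The 2 arrays of fish oil rat 202 read 8.94, within the olive oil range, and 8.16, and those of rat 206 read 8.60 and 8.10. Large spots were on 4 of 6 olive oil arrays and 1 of 7 fish oil arrays at 12 h. The Plk2 difference between fish oil and olive oil at 12 h was -0.66 ± 0.166 log2 with a 95% interval from -1.0 to -0.32 (SE, unadjusted p = 0.000479, adjusted p = 0.454, limma). It passed with array quality weights alone (-0.67, adjusted p = 0.043; 0.043 to 0.683 over 13 alternatives). Against corn oil at 12 h the fish oil difference was -0.53 ± 0.166 log2 (SE, unadjusted p = 0.00363, adjusted p = 0.378, limma). Ccng1 probe 1131 differed by -0.51 ± 0.196 log2 between fish oil and olive oil at 12 h (SE, unadjusted p = 0.0141, adjusted p = 0.54, limma), with a 95% interval from -0.92 to -0.11. Phlda3 differed by -0.32 log2 in the same pair, with a 95% interval from -0.91 to 0.28.

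The direction of each called member was the same in all 3 scan classes. Within the large ring class Phlda3 averaged 7.10 at 10 wk and 9.23 at 12 h, within the small ring class 7.21 at 10 wk and 8.73 at 12 h, and within the large spot class 7.15 at 10 wk and 9.18 at 12 h. Ccng1 probe 10712 differed by -1.35, -0.78 and -1.18 log2 in these classes, and Plk2 by -0.39, -0.67 and -0.86. Cdkn1a probe 20442 differed by -0.93, -1.30 and -0.41, and probe 7537 by -0.13, -0.42 and -0.43. With the class as a block and the rat as a random block, the averaged differences were -1.88 for Phlda3, -1.05 and -0.97 for Ccng1, -0.27 and -0.74 for Cdkn1a and -0.63 for Plk2, and all 6 stayed called. Within single diets, Cdkn1a probe 20442 in fish oil rats and Gadd45a in olive oil rats (-0.40, adjusted p = 0.0905, limma) no longer passed with the class as a block.

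**Figure D3:**
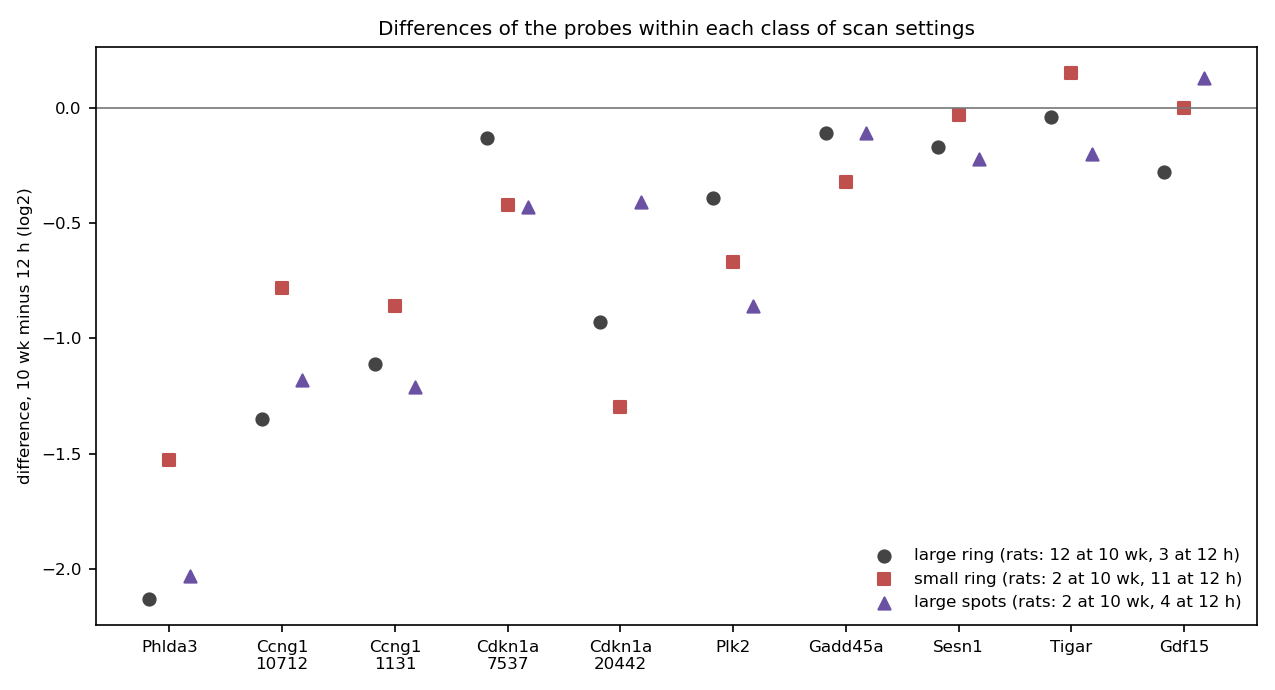
Difference between 10 wk and 12 h (log2, vertical axis) for each probe within each class of scan setting (symbols), with the number of rats behind each class in the legend. Phlda3, Ccng1, Cdkn1a and Plk2 lie below 0 in all 3 classes, and Tigar and Gdf15 lie on both sides of it or on it.

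Rats high in Phlda3 were also high in Ccng1 at 12 h on probe 10712, the Ccng1 probe used for the correlations. With diet means subtracted, Pearson's r over the 15 rats was 0.94 and Spearman's rho 0.96, each with a permutation p of 1e-05, the smallest that 100000 permutations within diet can give, and 7e-05 after adjustment over the 7 pairs tested. Leaving out rats 104 and 301, the farthest from the Phlda3 median, gave r = 0.95 on probe 10712. The correlation with the other Ccng1 probe, 1131, was not tested, with or without these rats. Fish oil rat 203 was the highest of its group on Phlda3 (9.49) and on probe 10712 (12.98). On probe 1131 it read 11.43, inside its group's range of 11.11 to 11.63. In corn oil and in olive oil the rat highest on Phlda3 was also highest on probe 1131. Within the small ring class alone, with 11 rats, r was 0.94, and the other classes held too few rats at 12 h for a value. Both genes were read from the same labelled RNA of each rat. The other members did not pass: r was 0.60 for Tigar (permutation p = 0.029, adjusted p = 0.1), 0.55 for Plk2 (adjusted p = 0.36), 0.30 for Cdkn1a probe 7537 (adjusted p = 0.63), 0.23 for Sesn1, 0.01 for Gdf15 and -0.32 for Gadd45a. Spearman's rho was 0.54 for Tigar and 0.20 for Plk2, and without rats 104 and 301 r was 0.37 for Tigar and -0.08 for Plk2. At 10 wk, where Phlda3 hardly varied, r between Phlda3 and Ccng1 was 0.37 over 14 rats, given as a description.

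**Figure D4:**
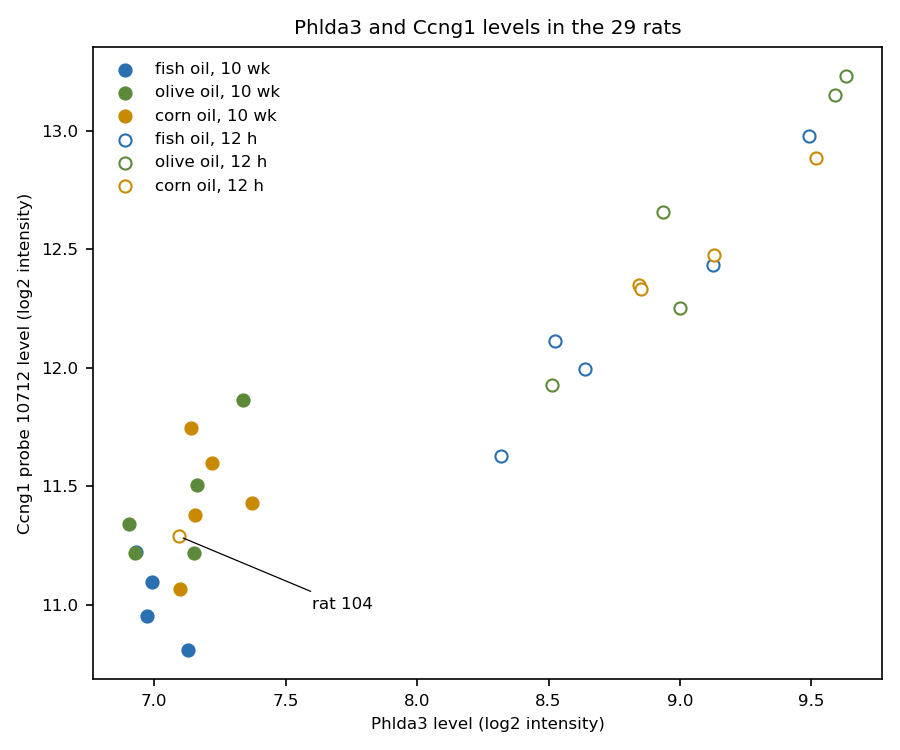
Phlda3 level (log2 intensity, horizontal axis) against Ccng1 level on probe 10712 (log2 intensity, vertical axis), 1 point per rat, with 10 wk rats filled and 12 h rats open. The 12 h rats run along a line (r = 0.94 with diet means subtracted), and rat 104, killed at 12 h, lies among the 10 wk rats at 7.09 and 11.29.

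Rat 104 was low in some of the 8 genes and not in others. Its 2 arrays, both of the small ring class with ordinary background, read 7.16 and 7.03 on Phlda3 and 11.44 and 11.14 on Ccng1 probe 10712, so its repeats were close. Its Gdf15 of 7.93 was the lowest among the 12 h rats. Its Phlda3 and both Ccng1 probes were within the range of the 10 wk rats and below all other 12 h rats. Its Plk2 of 8.34 and its Cdkn1a of 13.61 on probe 7537 lay within both ranges. Its Gadd45a of 11.87 was above all 10 wk rats and within the range of the other 12 h rats. Over all 2353 probes called between the times, rat 104 lay nearer the 10 wk mean than that of the other 12 h rats at 31.7%, the highest share of the 15 rats, of which the others had 13.1% to 31%. The interferon-induced chemokine gene Cxcl10 read 7.65 in rat 104, against 7.61 to 8.85 in the 10 wk rats and 9.14 to 11.10 in the other 12 h rats. The p53 target Aen read 7.88 in rat 104, against 7.54 to 8.20 in the 10 wk rats and 7.94 to 8.86 in the other 12 h rats. Ccnd2, the gene of cyclin D2, read 8.56 in rat 104, within both the 7.18 to 8.90 of the 10 wk rats and the 8.41 to 10.23 of the other 12 h rats. Another p53 target, Dusp5, read 10.48, against medians of 9.94 in the 10 wk rats and 10.42 in the other 12 h rats. Gzmb read 8.44, against 6.96 to 7.94 in the 10 wk rats and 7.48 to 9.01 in the other 12 h rats. Cxcl9 (8.46) lay below all other rats of both times, and Mki67 (10.37) and Cenpf (9.67) lay within both ranges. These genes were chosen after their values were seen.

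The genes whose 12 h pattern over rats was most like a member's, by Pearson's r over 15 rats with diet means subtracted and among 4423 named genes, were taken for 3 members as a description. For Phlda3 they were Cxcl10 (r = 0.96, and 0.92 without rat 104), Kifbp (0.91) and Ube2v2 (0.88). For Ccng1 they were Cxcl9 (0.97), Ube2v2 (0.94) and Cxcl10 (0.94). For Cdkn1a they were Uqcc1 (0.75), C11h21orf91 (0.75) and Zdhhc4 (0.74). Of these, Cxcl10 fell between the times by 1.80 log2 (adjusted p = 4.09e-06, limma), while Kifbp rose by 0.21 (adjusted p = 0.0216) and Uqcc1 by 0.20 (adjusted p = 0.00745). Cxcl9 differed by -0.16 (adjusted p = 0.403), Ube2v2 by -0.19 (adjusted p = 0.108), C11h21orf91 by -0.28 (adjusted p = 0.136) and Zdhhc4 by 0.01 (adjusted p = 0.925, limma).

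Other genes of the pathway were read from lists, beside all 4431 named genes tested, of which 18.1% were lower and 16.6% higher at 10 wk, with a median of -0.01 log2. The lists too were chosen with earlier results of these data known, so their counts are a description. Of 11 other p53 targets tested, 6 fell and 1 rose, with a median of -0.22. Those that fell were Dusp5, a phosphatase acting on ERK (-0.52), Aen, an apoptosis-enhancing nuclease (-0.44), Casp1, the inflammatory caspase (-0.40), Perp, a desmosomal protein (-0.28), Ephx1, an epoxide hydrolase (-0.28), and Bax, a pore-forming killer of the Bcl2 family (-0.22). Aen averaged 7.83 ± 0.21 at 10 wk and 8.28 ± 0.25 at 12 h (SD, n = 14 and 15; adjusted p = 0.00042, limma), and all 14 rats at 10 wk lay below the 12 h mean. The other Perp probe gave 0.08 (adjusted p = 0.372). Foxo3 did not pass on the probe that stands for it (-0.18, adjusted p = 0.189), but another of its probes was called lower (-0.59, adjusted p = 0.000293). Xpc, which recognises damaged DNA in excision repair, rose by 0.21 log2 (adjusted p = 0.00593, limma).

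Of 6 p53 regulators tested, Cop1, a ubiquitin ligase that acts on p53, fell (-0.70, adjusted p = 0.0109, limma) and Hus1, a part of the checkpoint clamp, rose (0.25, adjusted p = 0.00336), with a list median of -0.05. Cop1 differed by -1.61 in fish oil, -0.52 in olive oil and 0.02 log2 in corn oil rats. Of 7 family relatives of the members, 2 fell and 1 rose, with a median of -0.05. These were the kinase inhibitor genes Cdkn1c (-0.43) and Cdkn2b (-0.40) and, in the other direction, Cdkn2c (0.42). Of 4 genes of the G1 phase, Ccnd2 passed, at 7.99 ± 0.52 at 10 wk and 9.26 ± 0.61 at 12 h (SD), a fall by 1.27 log2 (adjusted p = 4.39e-05, limma), and the list median was -0.03. Of 10 genes of S to M phase, 5 rose and 1 fell, with a median of 0.21. Cenpf (0.84), Mki67 (0.61), Ccna2 (0.53), Cdk1 (0.52) and Aurkb (0.37) were higher at 10 wk, and Tyms, which makes thymidylate, was lower (-0.37). Of 7 genes of the integrated stress response, 3 fell and 1 rose, with a median of -0.12: Asns (-0.38), Ppp1r15a (-0.35) and Vldlr (-0.31) fell and Eif2ak4 (0.40) rose, but the other Asns probe rose (0.36, adjusted p = 0.00919).

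**Figure D5:**
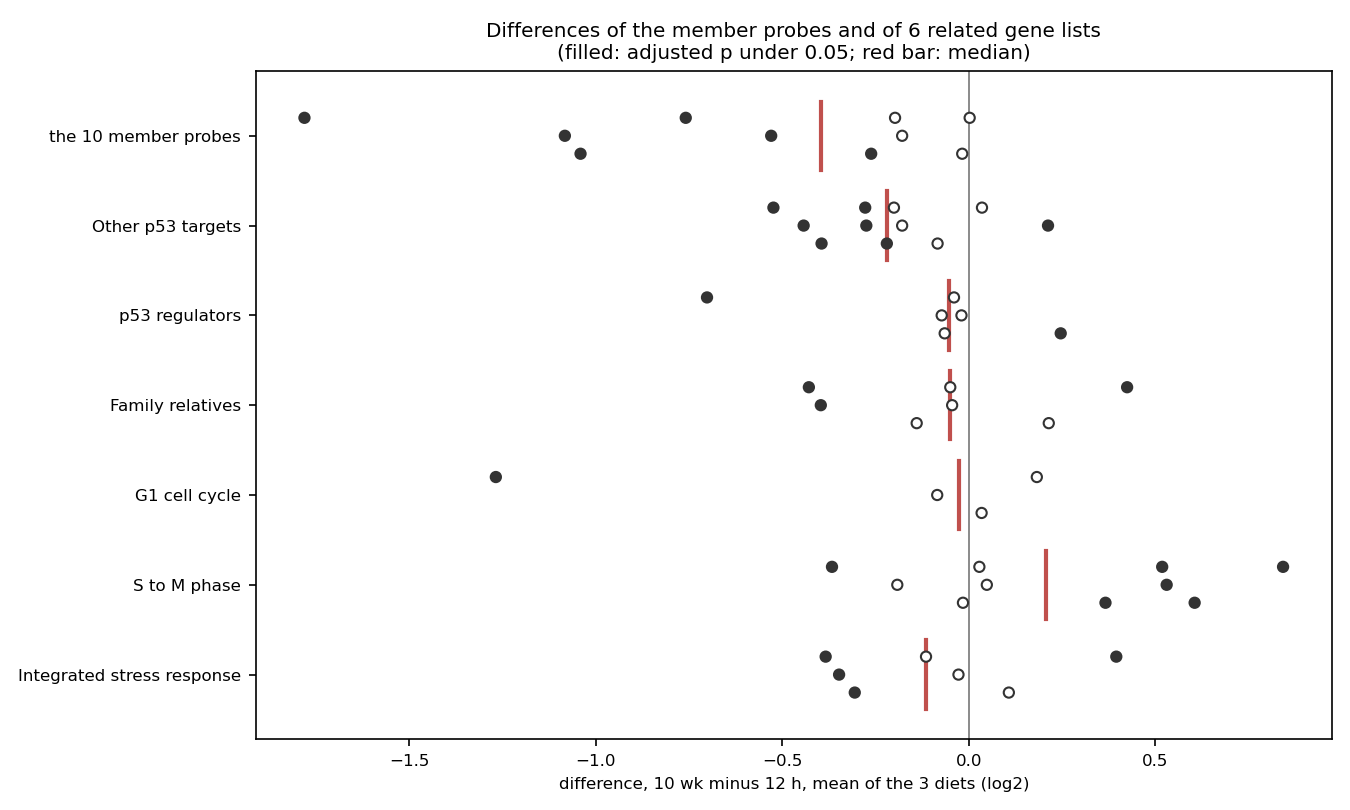
Difference between 10 wk and 12 h averaged over diets (log2, horizontal axis) for the 10 member probes and the tested genes of 6 related lists, 1 point per probe or gene, with filled points at an adjusted p under 0.05 and a red bar at the median. The member median is -0.40, that of the other p53 targets -0.22, and that of the S to M phase genes 0.21. The member median counts 2 probes each for Ccng1 and Cdkn1a, while the lists take 1 probe per gene, so these medians are not alike. With 1 probe per member gene the middle values are -0.26 (Cdkn1a probe 7537) and -0.20 (Gdf15), near the median of the other p53 targets.

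Markers of cell types were read beside these differences. The colonic epithelium markers on the array, Vil1 and Aqp8, were both tested and neither passed, and their mean level ran from 12.19 to 13.27 at 10 wk and from 12.13 to 13.61 at 12 h. Of 4 smooth muscle markers 3 rose, with a mean level of 7.59 to 8.75 at 10 wk and 7.22 to 8.47 at 12 h. Of 3 T and NK cell markers tested Gzmb fell (-0.98, adjusted p = 2.78e-05, limma), with a mean level over the 5 on the array of 6.90 to 7.58 at 10 wk and 6.98 to 7.84 at 12 h. Of 3 macrophage markers Itgam fell (-0.28), of 2 fibroblast markers tested Col1a1 fell (-0.23), and neither of 2 endothelial markers tested nor Cd74, the B cell list's lone gene on the array, passed. No marker was at the floor of 6.46 in all rats. The part of these cells in the members' differences was not tested.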

How the data were processed

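The deposited files hold, per the file headers, spot intensity, local background and noise for each probe of each array, on a linear scale, and the software behind them was not given in the sources used here. The authors' deposited normalized intensity served as an alternative alone, since constants stand in it for many probes. Background was corrected by normexp (offset 50), arrays were quantile normalised, values under the 10th percentile were set to it (log2 6.46), log2 was taken, and repeat arrays were averaged per rat (limma 3.58.1, R 4.3.3). The fit took the 6381 probes that exceeded the 30th percentile in 4 or more rats. The 6 groups entered 1 limma fit with 23 residual degrees of freedom, and p-values were adjusted over all tested probes. On simulated data with independent probes, of which few were shifted, the fit recovered most of the larger shifts. Background correction and normalisation were not part of that test, and shifts as small as the differences of Gadd45a or Gdf15 were not simulated. Precision is limited by 4 or 5 rats per group. Each rat is a separate animal by its label.

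The members and the gene lists were chosen with earlier results of these data known. All members were named, with up to 6 called genes of each list by size of difference, and the 3 genes most like Phlda3, Ccng1 and Cdkn1a. In lists and correlations a gene is read from its probe of highest mean level.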

Additional observations from a re-analysis of the deposited data

Results flagged for a closer look

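Within the 60 sets made by 10 probes and 6 groups of rats, 5 held a rat far from the others of its group, by Dixon's test at 95%. Chance flags about 1 in 20 such sets. Phlda3 was 7.09 in rat 104, against a nearest value of 8.84 in the other corn oil rats at 12 h. Ccng1 probe 1131 was 10.50 in rat 332, against 10.67 in the nearest olive oil rat at 10 wk. Cdkn1a probe 20442 was 10.00 in rat 201, against 10.72 in the nearest fish oil rat at 12 h, and the same rat read 8.75 on Gdf15, against 8.22 in the nearest. Tigar was 8.98 in rat 236, against 8.67 in the nearest fish oil rat at 10 wk, and 3 of the 4 arrays of rat 236 had a high local background.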

How the results depend on the processing

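The 6 member probes called lower at 10 wk kept their direction and their call under the 12 other settings in which the averaged difference was fitted and when each of the 29 rats was left out, and their number was 6 to 7 in both. The setting without the 6 high-background arrays was chosen after seeing the data. Within corn oil the number of called members was 1 with the deposited normalized values and 1 to 4 over the rats left out. With array quality weights 1 member, Plk2, differed between diets at 12 h, against 0 in the fit reported, and the cause was not tested. Within fish oil the number was 3 to 4 over the rats left out and over the alternatives. Within olive oil it was 5 to 7 over the rats left out and 4 to 7 over the alternatives, with 4 under the deposited normalized values, where Cdkn1a probe 7537 (adjusted p = 0.216) and Gadd45a (adjusted p = 0.265) no longer passed. Of 7 members, 1 to 2 correlated with Phlda3 over the 15 rats at 12 h left out in turn, the second being Tigar without rat 203 (r = 0.68, permutation, adjusted p = 0.038). No called value changed sign.

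All tested probes called between the times numbered 2353, but 1233 with the deposited normalized values, and the cause was not tested. Within diets the counts were 773 (170 to 1085 over the alternatives) in fish oil, 852 (135 to 2367) in olive oil and 193 (141 to 416) in corn oil rats. No paired analysis was possible because the repeat numbers in the labels mark arrays of 1 rat and not rats shared between groups. The main limits are 4 or 5 rats per group, scan classes spread unevenly over the times and diets, and members' levels read from 1 probe in 6 of 8 genes.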
